A study of Homo sapiens with 6 samples.

Results

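The genes described here build and remodel the extracellular matrix. They are 54 genes for collagens, matrix glycoproteins, proteoglycans, collagen-processing enzymes, matrix proteases and their inhibitors, chosen as a list of symbols, and all 54 were found among the 26485 genes of a table of read counts. RNA had been sequenced in 6 libraries of HCC38, an established human breast cancer line, labelled as a ductal adenocarcinoma of triple negative, basal-like type. The control group held 1 mock library, described as reagent without siRNA in its label but as not transfected in the design text, and the non-targeting siRNAs SCR#2 and SCR#3, with 1 library each. The other group held 1 library for each of 3 siRNAs against CIP2A, siCIP2A#1, siCIP2A#2 and siCIP2A#3, delivered with Oligofectamine. All 6 libraries came from this 1 line, and the labels give no time after transfection. Whether any 2 libraries shared a culture is not stated, and the p-values below reflect library-to-library spread, part of which may be technical. No 2 libraries had the same treatment. In the group comparison and in the fits per siRNA, the spread thus also holds differences between the mock and the 2 non-targeting siRNAs. In the group comparison, and in that of non-targeting siRNAs with the mock, it also holds differences among the 3 CIP2A siRNAs.

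CIP2A is an inhibitor of the phosphatase PP2A. The matrix is the protein scaffold around cells. Collagen chains are hydroxylated and folded in the endoplasmic reticulum, secreted, assembled into fibrils, sheets or beaded filaments, and crosslinked outside the cell by lysyl oxidases. Fibronectin, tenascins, thrombospondins and fibrillins join this scaffold, proteoglycans and nidogens link the basement membrane, and metalloproteases and plasminogen activators take it apart. In breast tissue, fibroblasts make most interstitial collagen, and carcinoma cells with mesenchymal features can make matrix proteins themselves.

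Total counts ran from 13995187 in the mock to 18161451 with siCIP2A#1. Levels are given in CPM, the count divided by the TMM-scaled library size and scaled to a common total, and 3 counts, taken as the limit that a count of 0 allows (counting error only), correspond to 0.162 to 0.218 CPM. CIP2A stood at 98.9, 99.8 and 103 CPM in mock, SCR#2 and SCR#3 and at 16.3, 45.8 and 19.3 CPM with siCIP2A#1, siCIP2A#2 and siCIP2A#3. All 3 siRNA libraries lay below all 3 controls, and siCIP2A#2 left the most CIP2A RNA. The 8 epithelial markers summed to 648 to 1149 CPM over the 6 libraries, nearly all of it from the keratins KRT8 and KRT18. EPCAM (at most 0.747 CPM) and the basal keratin KRT5 (at most 0.0679 CPM) were near 0 and the basal keratin KRT14 was at 0, in a line labelled basal-like. Of the 8 epithelial markers, 4 had enough counts to be tested. KRT17, KRT19 and CDH1 are given only within the sum, so the label is not judged here. The 5 mesenchymal markers summed to 4477 to 4966 CPM, most of it from VIM, which stood between 4318 and 4805 CPM. Of the markers of other cell types that are not members, 10 of fibroblasts and pericytes summed to 11.02 to 19.1 CPM, 6 of endothelium to 9.72 to 18.0 CPM and 5 of leukocytes to 152 to 203 CPM, the last almost all from the lysosomal gene CD68 (152 to 203 CPM). In each of these lists 1 marker had 0 counts in all libraries: THY1 of fibroblasts, CDH5 of endothelium and PTPRC of leukocytes. In bulk RNA, fewer cells of a type and less RNA per cell cannot be told apart.

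Stretches upstream of FN1 and TNC are shown because these genes had some of the smallest p-values for the 3 CIP2A siRNAs as a group. They are from RefSeq on GRCh38.p14, lie upstream of every GENCODE exon of the gene and so stop short of the RefSeq start site, and run 5′ to 3′ on the minus strand. Capitals mark matches to GGGCGG or CCAAT on either strand, and TATAAA and TGACTCA were also searched.

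FN1 (chr2:215436173-215436318): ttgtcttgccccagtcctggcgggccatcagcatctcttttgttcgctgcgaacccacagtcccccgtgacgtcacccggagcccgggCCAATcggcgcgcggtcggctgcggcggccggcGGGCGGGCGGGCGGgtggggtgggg

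TNC (chr9:115118258-115118407): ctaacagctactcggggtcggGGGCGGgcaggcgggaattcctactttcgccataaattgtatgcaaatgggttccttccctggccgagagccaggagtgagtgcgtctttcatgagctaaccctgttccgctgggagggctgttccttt

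The FN1 stretch held 3 overlapping GGGCGG matches and 1 CCAAT, and the TNC stretch held 1 GGGCGG. Windows ran from 250 bases before to 50 after each RefSeq start, and 41 members had an entry in the set of windows used. COL1A1 and PLAT had none. GGGCGG or its other strand occurred in 30 of these 41 members (73.2%) and in 44.6% of all 27305 entries. CCAAT occurred in 34.1% of these members and 35.7% of all entries, TATAAA in 17.1% and 11.95%, and TGACTCA in 4.88% and 4.92%. These are matches of letters only.

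Levels of different genes were compared per length, as CPM per kilobase of exon sequence in the 3 controls (mean ± SD, n = 3). The highest belonged to LGALS1, which encodes the lectin galectin-1 (520 ± 51.3), to the urokinase gene PLAU (339 ± 15.2), to the metalloprotease inhibitor genes TIMP1 (205 ± 5.75) and TIMP2 (110 ± 4.21), and to MMP14, which encodes a membrane-bound collagenase (93.2 ± 9.50). Among collagens, the beaded-filament chains led, with COL6A2 at 31.9 ± 4.16 and COL6A1 at 24.0 ± 3.10, while the third classical chain of the same filament, COL6A3, stood at only 0.027 on this scale. Fibrillar collagen RNA was scarce: COL1A1 stood at 0.512 and COL1A2, the partner chain of type I collagen, at 0.068. The plot of level per length shows this wide range, with galectin-1, PLAU, TIMP1, TIMP2 and MMP14 at the top and every fibrillar collagen at or below 1.66 CPM per kilobase.

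**Figure D1:**
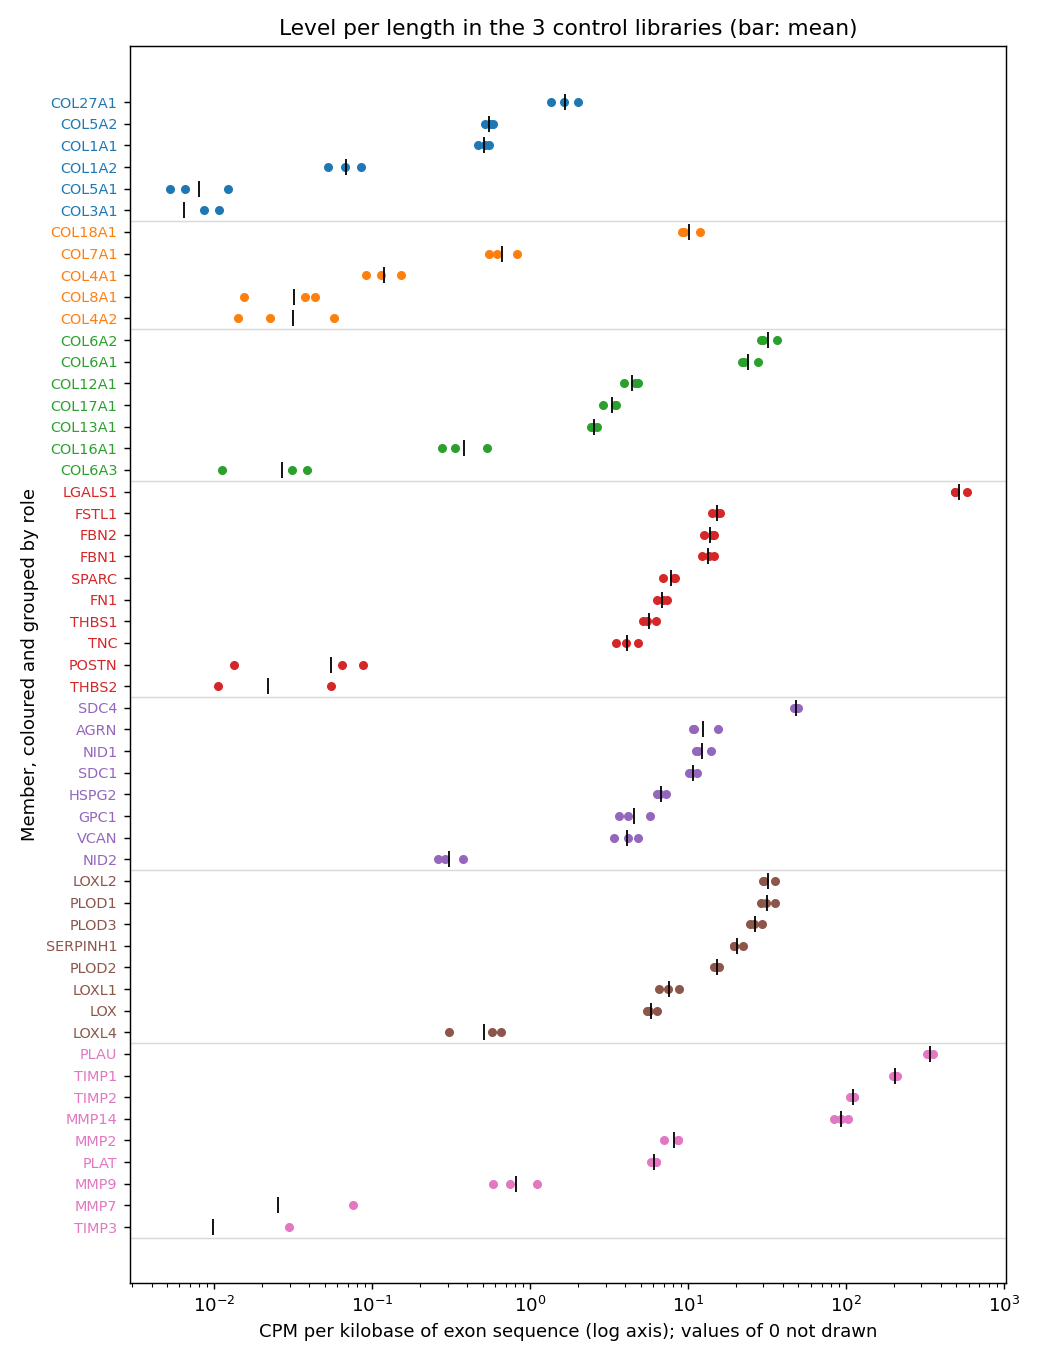
CPM per kilobase of exon sequence (log axis) of each member with a count in the controls, grouped and coloured by role; points are the 3 control libraries and the bar their mean. LGALS1 and PLAU are highest (means 520 and 339), COL6A2 and COL6A1 lead the collagens, and COL1A1 lies at 0.512.

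Of the 54 members, 45 had enough counts to be tested and 9 did not. BGN, the gene of the proteoglycan biglycan, had 0 counts in every library. COL3A1, COL5A1, TIMP3 and MMP7 had at most 3 counts in any library, and THBS2, POSTN and COL8A1 at most 9. COL4A2, partner of COL4A1 in basement membrane collagen, had 6, 19 and 4 counts in mock, SCR#2 and SCR#3 and 24, 9 and 7 with siCIP2A#1, siCIP2A#2 and siCIP2A#3. These genes are at or near the limit of this depth, and differences among their counts are not read further.

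With the 3 CIP2A siRNAs taken as a group against the 3 controls, 0 members passed edgeR's quasi-likelihood test, whose p-values carry a Benjamini-Hochberg adjustment over the 13562 genes tested, and 0% of all genes passed in each direction. CIP2A itself did not pass (log2 difference -1.90, SE 0.30, edgeR adjusted p = 0.708, DESeq2 adjusted p = 0.154). A count of 0 here therefore does not show that the members were unchanged. DESeq2 and limma-voom also called 0 members, and DESeq2 called 0.0147% of all genes higher and 0.00737% lower. At an unadjusted edgeR p under 0.05, 4 members were higher, TNC, COL1A1, FN1 and PLOD3, and 0 were lower, where 1.49% of all genes were higher and 1.23% lower. The median log2 difference over the tested members was 0.11, with 35 above 0 and 10 below, beside a median of -0.001 over all genes. Of all genes, 6734 were above 0 and 6828 below. Without siCIP2A#1 the median over the tested members was 0.008. Each group has 3 libraries, and an exact permutation test of 3 against 3 cannot give a p below 0.10.

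FN1 and PLOD3 were the 2 members whose groups did not overlap, both with the siRNAs higher. That is 4.44% of the tested members, beside 3.26% of all genes with all 3 siRNA libraries above all 3 controls. No tested member had all 3 siRNA libraries below all 3 controls, where 4.38% of all genes did. The shares of members and of all genes with the siRNAs higher are thus close to one another.

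Each siRNA was then set against the 3 controls in a fit where its 1 library was assumed to vary like the controls. The 3 siRNAs gave different pictures, and because all of these comparisons share the same controls their values are set side by side only.

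With siCIP2A#1, COL1A1 and SPARC rose and 0 members fell by edgeR, where 0.059% of all genes were called higher and 0.059% lower. DESeq2 called the same 2 members and 0.162% of all genes higher and 0.391% lower, and limma-voom also called 2 members. At an unadjusted edgeR p under 0.05, 19 members were higher and 3 lower (backgrounds 5.57% and 4.38%). The siCIP2A#1 library lay above all 3 controls for 31 of the 45 tested members, or 68.9%, against 26.5% of all genes, and below all 3 for 5 members (NID2, SDC1, SDC4, LOXL1 and TIMP1), or 11.1%, against 28.8%. The median log2 difference was 0.27, with 40 members above 0, beside -0.006 over all genes, where 6614 of 13562 were above 0. The number called depended on the controls used: without the mock it was 28, with 13.8% of all genes called in either direction, and without SCR#2 it was 7, with 0.745%.

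With siCIP2A#2, edgeR called 0 members, where it called 0.0516% of all genes higher and 0.0221% lower. DESeq2 called PLOD2 lower and 0 members higher (backgrounds 0.17% lower and 0.28% higher), and limma-voom called 0. At an unadjusted edgeR p under 0.05, 9 members were higher and 3 lower (backgrounds 5.38% and 6.21%). Its library lay above all controls for 20 members (44.4%, against 28.6% of all genes) and below all controls for 9 (20.0%, against 30.7%). The median log2 difference was 0.17, beside -0.003 over all genes. Without the mock, 20 members were called, and 22.4% of all genes.

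With siCIP2A#3, edgeR called 0 members, where it called 0% of all genes higher and 0.00737% lower. DESeq2 (backgrounds 0.0369% higher and 0.177% lower) and limma-voom also called 0 members. At an unadjusted edgeR p under 0.05, 1 member was higher and 6 were lower (backgrounds 2.99% and 5.24%). Its library lay above all controls for 7 members (15.6%, against 25.7% of all genes) and below all controls for 15 (33.3%, against 28.6%). The median log2 difference was -0.09, with 34 of 45 members below 0, beside -0.009 over all genes, where 7053 of 13562 were below 0. Without the mock, 8 members were called, and 9.65% of all genes. The count above all controls was then 12, or 13 without SCR#2, each over the remaining controls only. Fewer controls are easier to exceed for any gene, and the share of all genes was not computed there.

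**Figure D2:**
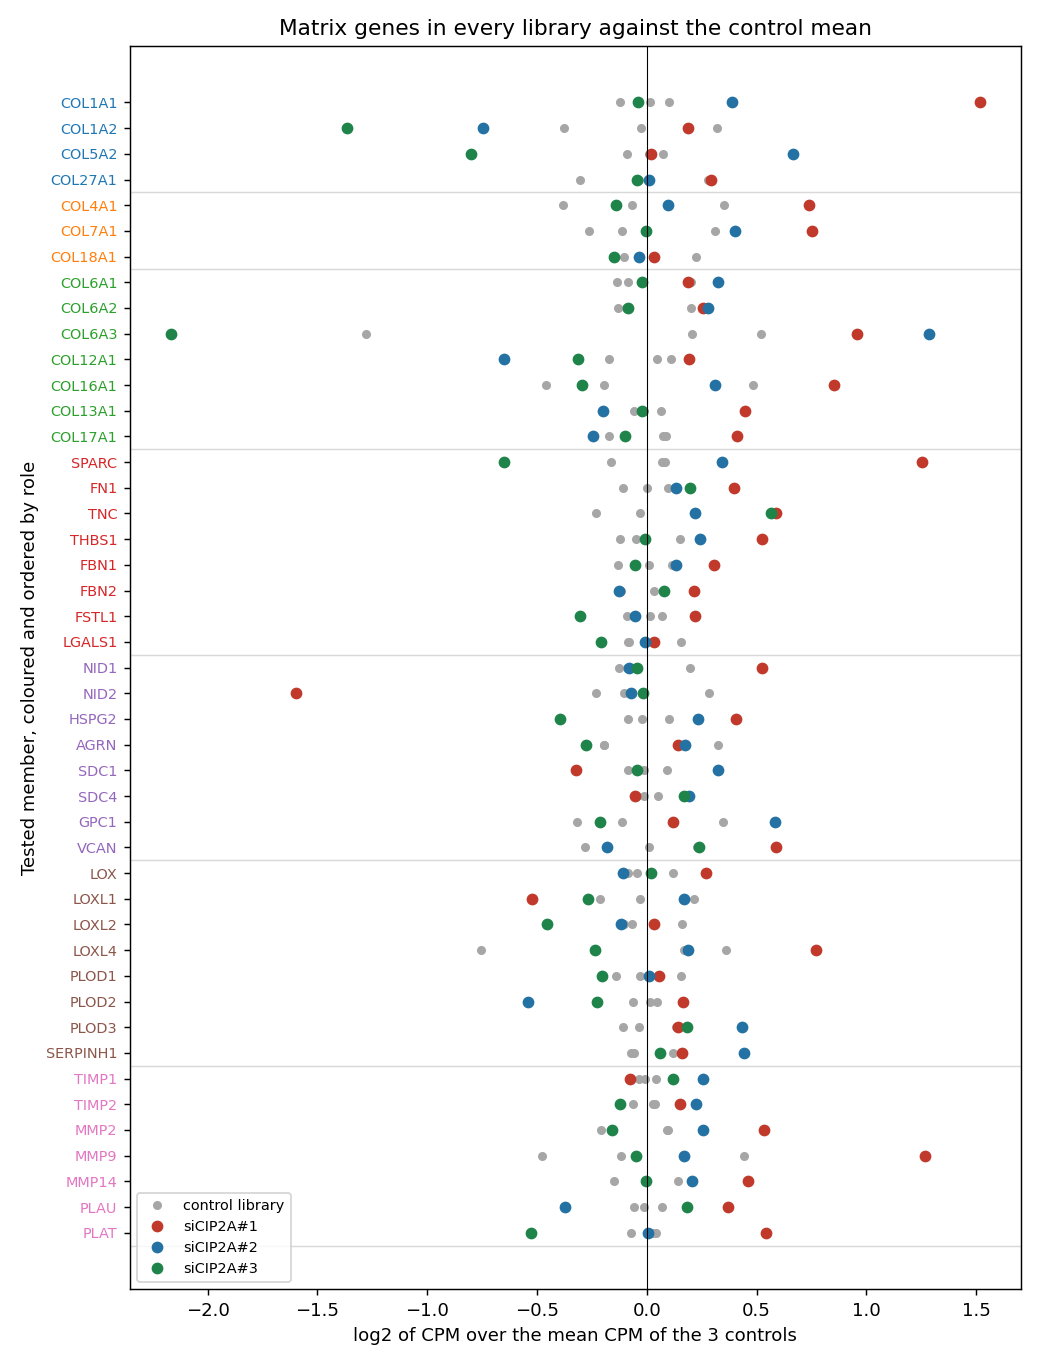
The log2 ratio of the CPM in each library to the mean CPM of the 3 controls, for the 45 tested members in order of role; grey points are control libraries and coloured points the 3 CIP2A siRNAs. The siCIP2A#1 points lie mostly to the right, with 31 members (68.9%) above all controls, against 26.5% of all genes. With siCIP2A#3, 15 members (33.3%) lie below all controls, against 28.6% of all genes.

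The siRNAs were compared with one another in the same fit, in contrasts planned with earlier calls for siCIP2A#1 in these data known. Set against siCIP2A#3, edgeR called COL1A1, SPARC and PLAT higher with siCIP2A#1 and 0 members lower (backgrounds 0.361% and 0.147% of all genes). DESeq2 called HSPG2 as well as these 3 (backgrounds 0.671% and 0.391%). Between siCIP2A#1 and the mean of the other 2, edgeR called the same 3 genes higher and 0 lower (backgrounds 0.199% and 0.118%), while DESeq2 added COL12A1, PLOD2 and PLAU (backgrounds 0.524% and 0.45%). Without the mock, 27 and 28 members were called in these comparisons, and 18% and 15.6% of all genes.

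When siCIP2A#1 was set against siCIP2A#2, edgeR called 0 members, and 0% of all genes were higher with siCIP2A#1 and 0.0147% lower. DESeq2 called COL12A1, PLOD2, PLAU and SPARC higher with siCIP2A#1 and 0 lower (backgrounds 0.295% and 0.361%). Between siCIP2A#2 and siCIP2A#3, edgeR called 0 members and 0% of all genes in each direction, while DESeq2 called SPARC higher and PLAU lower with siCIP2A#2 (backgrounds 0.42% and 0.288%). At an unadjusted edgeR p under 0.05, 12 members were higher and 5 lower with siCIP2A#1 than with siCIP2A#2 (backgrounds 6.71% and 5.38%), and 10 were higher and 2 lower with siCIP2A#2 than with siCIP2A#3 (backgrounds 8.24% and 7.37%). Limma-voom called 0 members in both comparisons. Without the mock, edgeR called 26 and 23 members, and 16.7% and 22% of all genes.

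**Figure D3:**
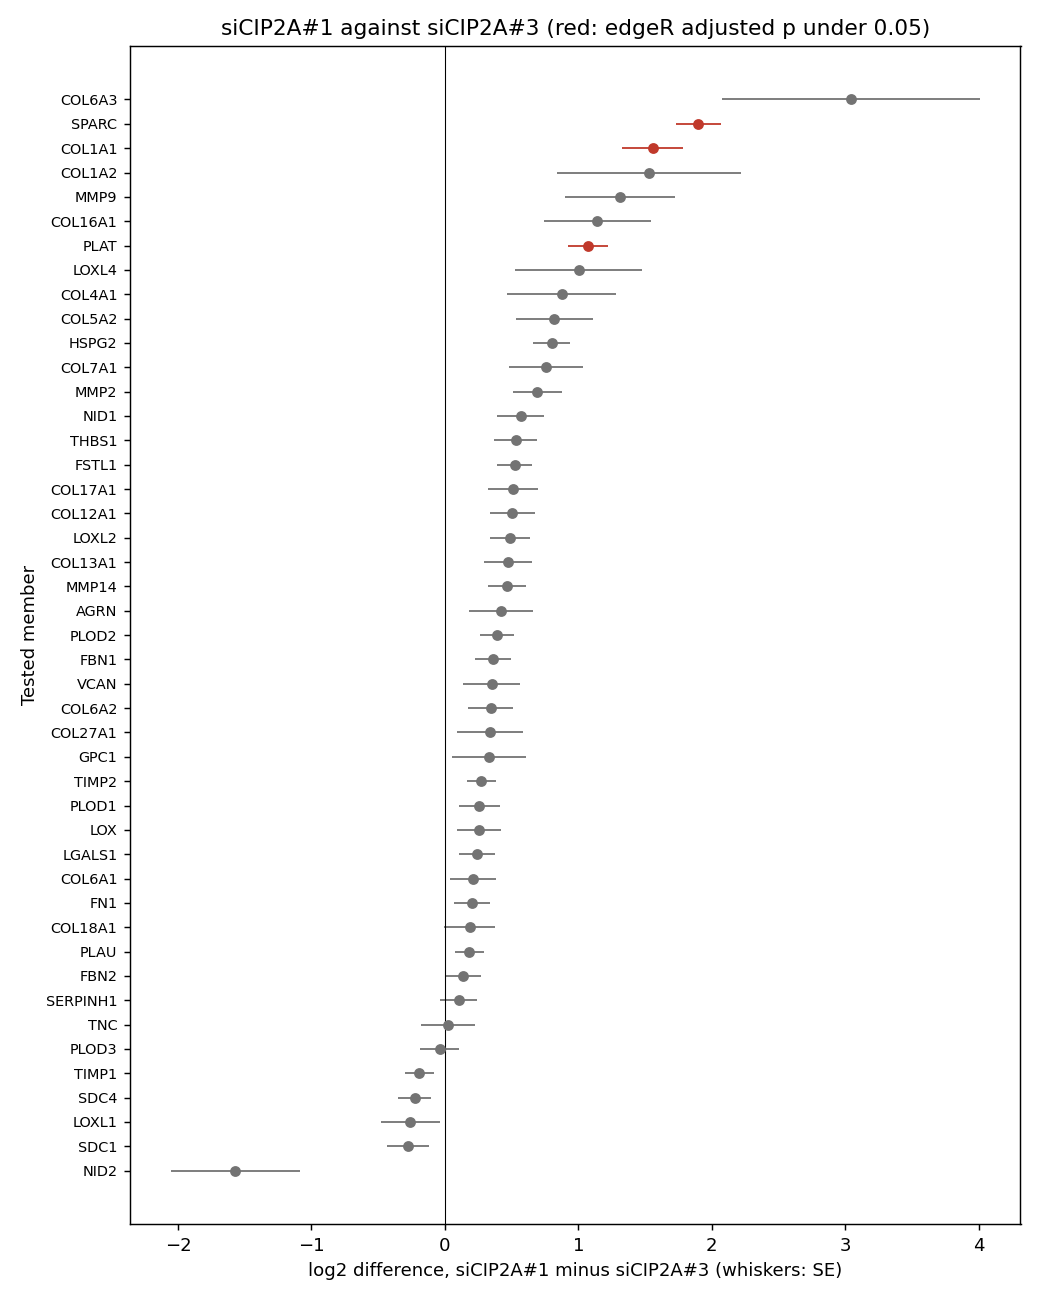
The log2 difference between siCIP2A#1 and siCIP2A#3 for each of the 45 tested members, ordered by size, with the SE from edgeR as whiskers; red marks an adjusted p under 0.05. SPARC (1.90), COL1A1 (1.56) and PLAT (1.07) are red, and COL6A3 is farthest right with the widest SE (0.97).

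Among fibrillar collagens, COL1A1, the main chain of type I collagen, stood at 5.39, 5.09 and 4.61 CPM in mock, SCR#2 and SCR#3 and at 14.4, 6.59 and 4.89 CPM with siCIP2A#1, siCIP2A#2 and siCIP2A#3. The siCIP2A#1 library was far above the controls, siCIP2A#2 was a little above them and siCIP2A#3 lay among them. With siCIP2A#1, COL1A1 rose by a log2 difference of 1.52 (SE 0.17, edgeR adjusted p = 0.0270). The log2 difference was 1.56 between siCIP2A#1 and siCIP2A#3 (SE 0.23, edgeR adjusted p = 0.0414). The group difference of 0.79 was 0.19 without siCIP2A#1. The counts behind it were 68 to 87 in the controls and 266 with siCIP2A#1.

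COL1A2, whose chain joins that of COL1A1 in the type I collagen triple helix, was too sparsely counted to show whether it shared this pattern. It had 13, 10 and 11 counts in the controls and 16, 7 and 5 with siCIP2A#1, siCIP2A#2 and siCIP2A#3. Its log2 difference with siCIP2A#1 was 0.21 to the controls (SE 0.46) and 1.53 to siCIP2A#3 (SE 0.69). COL5A2, a chain of the collagen that helps set fibril diameter, stood at 3.86, 4.33 and 4.14 CPM in the controls and at 4.17, 6.52 and 2.36 CPM with the 3 siRNAs in order. It lay above all controls with siCIP2A#2 and below all controls with siCIP2A#3, with log2 differences of 0.66 (SE 0.21) and -0.80 (SE 0.25), neither of which passed (edgeR adjusted p = 0.333 and 0.504). COL27A1 stood between 18.9 and 28.5 CPM in all libraries.

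Among basement membrane and network collagens, COL7A1, which forms the anchoring fibrils under epithelia, stood at 9.10, 6.78 and 6.11 CPM in the controls and at 12.3, 9.69 and 7.31 CPM with the 3 siRNAs in order. The first 2 siRNA libraries were above all controls and the third was within their range, and the log2 difference with siCIP2A#1 was 0.76 (SE 0.22, edgeR adjusted p = 0.266). COL4A1, a sheet-forming chain of the basement membrane, had 23, 23 and 33 counts in the controls and 54, 29 and 27 with the siRNAs. The siCIP2A#1 library alone lay above all controls, with a log2 difference of 0.75 (SE 0.32, edgeR adjusted p = 0.493). COL18A1, the source of endostatin, stood between 77.7 and 101 CPM, highest in the mock. Exons of another gene on the opposite strand cover 16.4% of its exon bases, and the strand setting of the counting is not given in the sources used here.

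COL6A1 and COL6A2 lie near each other on chromosome 21 and encode partner chains of the collagen VI filament. COL6A1 stood at 147, 121 and 117 CPM in the controls and at 146, 161 and 126 CPM with the siRNAs in order. COL6A2 stood at 197, 161 and 157 CPM in the controls and at 205, 208 and 162 CPM with the siRNAs. In both genes the mock was the highest control, the groups overlapped, and siCIP2A#2 was above the mock. COL6A3 had 3, 13 and 9 counts in the controls and 19, 20 and 2 with the siRNAs, so its log2 difference of 3.04 between siCIP2A#1 and siCIP2A#3 carried an SE of 0.97 and did not pass (edgeR adjusted p = 0.232).

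COL12A1, a fibril-associated collagen, stood at 57.2, 59.7 and 49.2 CPM in the controls and at 63.3, 35.3 and 44.5 CPM with the siRNAs in order. It was below all controls with siCIP2A#2 and siCIP2A#3 and above them with siCIP2A#1. The log2 difference with siCIP2A#2 was -0.65 (SE 0.15, edgeR adjusted p = 0.224), and that between siCIP2A#1 and siCIP2A#2 was 0.84 (SE 0.17, edgeR adjusted p = 0.135, DESeq2 adjusted p = 0.0304). COL16A1, another fibril-associated chain, stood at 4.95, 3.10 and 2.58 CPM in the controls and at 6.39, 4.39 and 2.89 CPM with the siRNAs, with the mock again the highest control. The transmembrane collagens COL13A1 and COL17A1, the latter a part of hemidesmosomes, were above all controls with siCIP2A#1 (20.4 and 30.9 CPM) and below all controls with siCIP2A#2 (13.0 and 19.6 CPM). Neither passed the test with any siRNA.

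SPARC, a collagen-binding matricellular protein, differed more between siCIP2A#1 and siCIP2A#3 than any other tested member except the sparsely counted COL6A3. It stood at 33.6, 39.5 and 39.8 CPM in mock, SCR#2 and SCR#3 and at 89.5, 47.7 and 24.0 CPM with siCIP2A#1, siCIP2A#2 and siCIP2A#3. The first 2 siRNA libraries were above all controls and the third was below all of them. With siCIP2A#1, SPARC rose by a log2 difference of 1.25 (SE 0.13, edgeR adjusted p = 0.0258). The log2 difference was 0.34 with siCIP2A#2 (SE 0.14, edgeR adjusted p = 0.393) and -0.65 with siCIP2A#3 (SE 0.15, edgeR adjusted p = 0.371). Between siCIP2A#1 and siCIP2A#3 the log2 difference was 1.90 (SE 0.17, edgeR adjusted p = 0.0216). The group difference was 0.52 and became -0.07 without siCIP2A#1.

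FN1, the gene of fibronectin, which cells bind through integrins, stood at 110, 119 and 127 CPM in the controls and at 157, 131 and 136 CPM with the siRNAs in order. All siRNA libraries were above all controls, by a small margin for siCIP2A#2. The group log2 difference was 0.25 (SE 0.10, edgeR adjusted p = 0.999; exact two-sided permutation p = 0.10, the smallest value 3 against 3 can give). TNC, which encodes the anti-adhesive glycoprotein tenascin-C, stood at 33.7, 46.1 and 38.7 CPM in the controls and at 59.5, 46.0 and 58.5 CPM with the siRNAs. The siCIP2A#2 library was level with the highest control, so the groups overlapped, and the other 2 were above it. Its group log2 difference of 0.47 had an SE of 0.14 (edgeR adjusted p = 0.999). It lay between 0.37 without the mock and 0.59 without SCR#2.

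THBS1, which encodes the matricellular protein thrombospondin-1, stood at 57.7, 47.7 and 50.2 CPM in the controls and at 74.5, 61.3 and 51.6 CPM with the siRNAs in order. The microfibril genes FBN1 and FBN2 stood between 166 and 266 CPM in all libraries and were highest with siCIP2A#1. FSTL1, a secreted glycoprotein related to SPARC, ranged from 107 CPM with siCIP2A#3 to 154 CPM with siCIP2A#1. LGALS1 was highest in the mock (637 CPM) and lowest with siCIP2A#3 (495 CPM). Of the 8 tested glycoprotein and matricellular genes, 7 (87.5%) were above all controls with siCIP2A#1, against 26.5% of all genes. Only SPARC passed the test there. Of the 8 tested basement membrane linkers and proteoglycans, 3 were above all controls with siCIP2A#1 and 3 below.

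**Figure D4:**
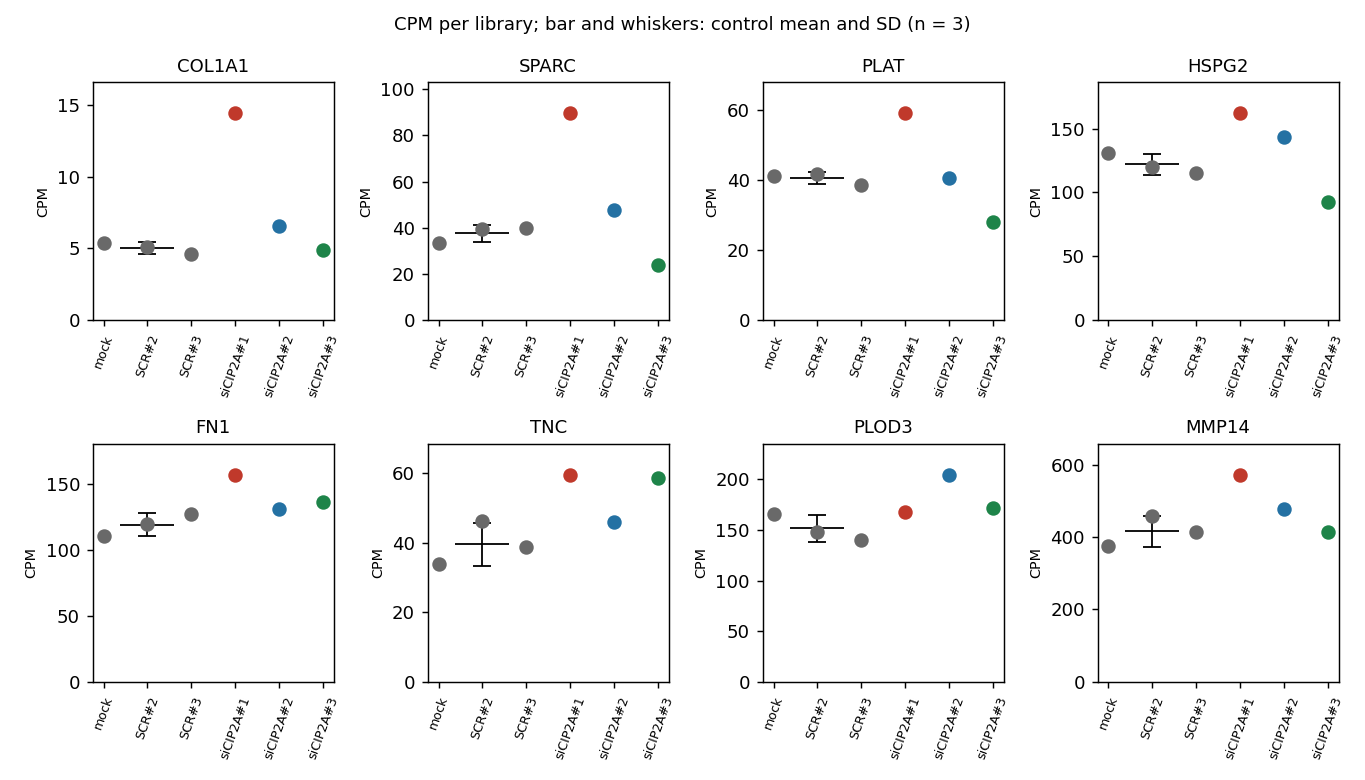
CPM in each library for 8 members (linear axes from 0, different for each gene); grey points are the controls with their mean and SD (n = 3) and coloured points the siRNAs. COL1A1 (14.4) and SPARC (89.5) stand far above the controls with siCIP2A#1, PLAT and HSPG2 spread to both sides of the controls, and all siRNA points of FN1 and PLOD3 lie above the controls.

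Among basement membrane linkers and proteoglycans, the nidogen genes NID1 and NID2, whose proteins bridge laminin and collagen IV, lay on opposite sides of the controls with siCIP2A#1. NID1 stood at 65.7, 82.3 and 67.5 CPM in the controls and at 103, 68.0 and 69.8 CPM with the siRNAs, with only siCIP2A#1 outside the control range. NID2 had 23, 41 and 27 counts in the controls and 12, 29 and 33 with the siRNAs, with only siCIP2A#1 below the control range. The log2 differences with siCIP2A#1 were 0.52 (SE 0.14) for NID1 and -1.60 (SE 0.42) for NID2 (edgeR adjusted p = 0.235 and 0.226). Exons of a gene on the opposite strand cover about 30% of the exon bases of NID2.

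HSPG2, which encodes perlecan, the main heparan sulfate proteoglycan of basement membranes, stood at 131, 120 and 115 CPM in the controls and at 162, 144 and 92.9 CPM with the siRNAs in order. The first 2 siRNA libraries were above all controls and the third below all of them, in the same order as for SPARC. Its log2 difference between siCIP2A#1 and siCIP2A#3 was 0.80 (SE 0.14, edgeR adjusted p = 0.0542, DESeq2 adjusted p = 0.00189). VCAN, the gene of the large proteoglycan versican, stood at 50.3, 71.6 and 61.6 CPM in the controls and at 91.9, 53.9 and 72.1 CPM with the siRNAs, and only siCIP2A#1 was well above the highest control.

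GPC1, a membrane-anchored heparan sulfate proteoglycan, stood at 37.5, 23.6 and 27.3 CPM in the controls and at 32.0, 44.2 and 25.4 CPM with the siRNAs in order. Only siCIP2A#2 left the control range, which the mock set at its upper end. The cell-surface proteoglycan SDC1 was lowest with siCIP2A#1 (30.9 CPM) and highest with siCIP2A#2 (48.3 CPM), with 36.3 to 41.1 CPM in the controls. AGRN, the gene of agrin, stood at 166 CPM in the mock and at 116 CPM with each non-targeting siRNA. None of these 3 genes passed the edgeR test with any siRNA.

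Among genes that fold and modify collagen, PLOD3, a lysyl hydroxylase that also glycosylates collagen, stood at 166, 148 and 140 CPM in the controls and at 167, 204 and 172 CPM with the siRNAs in order. The siCIP2A#1 library exceeded the mock only narrowly, although the groups did not overlap. The group log2 difference was 0.26 (SE 0.10, edgeR adjusted p = 0.999; exact two-sided permutation p = 0.10, the smallest value 3 against 3 can give). SERPINH1, the collagen chaperone HSP47, stood at 139, 122 and 123 CPM in the controls and at 143, 174 and 134 CPM with the siRNAs, with a log2 difference of 0.44 with siCIP2A#2 (SE 0.11, edgeR adjusted p = 0.255).

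PLOD2, the lysyl hydroxylase that acts on collagen telopeptides, stood at 118, 121 and 112 CPM in the controls and at 131, 80.3 and 100 CPM with the siRNAs in order. It was below all controls with siCIP2A#2 and siCIP2A#3 and above them with siCIP2A#1. The log2 difference with siCIP2A#2 was -0.54 (SE 0.11), which edgeR did not call (adjusted p = 0.189) and DESeq2 did (adjusted p = 0.0433). Among crosslinking lysyl oxidases, LOX stood between 29.8 and 38.8 CPM, LOXL1 was lowest with siCIP2A#1 (19.2 CPM, against 23.8 to 32.0 in the controls), and LOXL2 was lowest with siCIP2A#3 (133 CPM, against 169 to 203). LOXL4 had only 19 to 59 counts per library. No crosslinking gene passed the edgeR test with any siRNA.

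Among proteases, PLAT, the gene of tissue plasminogen activator, stood at 41.2, 41.6 and 38.5 CPM in the controls and at 58.9, 40.6 and 28.0 CPM with the siRNAs in order. The first siRNA library was above the narrow control range, the second inside it and the third below it. Neither difference to the controls passed (log2 0.54 with siCIP2A#1, SE 0.12, and -0.53 with siCIP2A#3, SE 0.13; edgeR adjusted p = 0.151 and 0.4005). Against siCIP2A#3, the log2 difference of siCIP2A#1 was 1.07 (SE 0.15, edgeR adjusted p = 0.0369). The group difference, which averages these opposite values, was 0.07 and became -0.24 without siCIP2A#1.

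PLAU, the gene of urokinase, the other plasminogen activator, had a different order. It stood at 962, 1050.4 and 991 CPM in the controls and at 1292, 773 and 1138 CPM with siCIP2A#1, siCIP2A#2 and siCIP2A#3. It was above all controls with siCIP2A#1 and siCIP2A#3 and below them with siCIP2A#2. The log2 difference between siCIP2A#1 and siCIP2A#2 was 0.74 (SE 0.11, edgeR adjusted p = 0.0842, DESeq2 adjusted p = 4.68e-04).

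MMP14 stood at 375, 460 and 413 CPM in the controls and at 573, 479 and 415 CPM with the siRNAs in order, and MMP2, the gelatinase that its protein activates, at 34.7, 42.7 and 42.8 CPM and then 58.0, 47.9 and 35.9 CPM. Both were clearly highest with siCIP2A#1 and within the control range with siCIP2A#3. MMP9, the other gelatinase, had 24, 44 and 20 counts in the controls and 84, 33 and 31 with the siRNAs, with a log2 difference of 1.24 with siCIP2A#1 (SE 0.32, edgeR adjusted p = 0.217). The inhibitor TIMP1 was highest with siCIP2A#2 (376 CPM) and lowest with siCIP2A#1 (299 CPM), with 307 to 325 CPM in the controls. TIMP2 stood at 690, 725 and 571 CPM with the siRNAs and at 594 to 637 CPM in the controls. More than 10% of the exon bases of PLAU, TIMP2, MMP9, HSPG2, NID2 and COL18A1 overlap exons of other genes.

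Other matrix genes were taken from 5 lists, of which 168 genes were in the table and 98 were tested. Against the controls, edgeR called 0 of them with each siRNA. At an unadjusted edgeR p under 0.05, siCIP2A#1 had 26 of them higher and 2 lower (5.57% and 4.38% of all genes), siCIP2A#2 had 12 higher and 9 lower (5.38% and 6.21%), and siCIP2A#3 had 4 higher and 9 lower (2.99% and 5.24%). DESeq2 called 1 higher and 1 lower for the first siRNA (0.162% and 0.391% of all genes), 0 for the second (0.28% and 0.17%), and 0 higher and 3 lower for the third (0.0369% and 0.177%). In the comparison of siCIP2A#1 with siCIP2A#3, edgeR called 3 of them higher and 0 lower (0.361% and 0.147% of all genes), and DESeq2 called 5 higher and 1 lower (0.671% and 0.391%). With edgeR the 3 were higher with siCIP2A#1 on the log2 scale, namely TGM2, a crosslinking transglutaminase, by 1.02 (SE 0.15, adjusted p = 0.0414), TGFBI, an integrin-binding matrix protein, by 0.83 (SE 0.10, adjusted p = 0.0242), and CYR61, a matricellular protein, by 0.82 (SE 0.13, adjusted p = 0.0476). TGFBI stood at 535, 535 and 547 CPM in the controls and at 668, 516 and 377 CPM with the siRNAs. Against the mean of the other 2 siRNAs, CTGF, a matricellular relative of CYR61, was higher with siCIP2A#1 by 1.04 (SE 0.15, edgeR adjusted p = 0.0430), as was TGFBI by 0.60 (SE 0.09, edgeR adjusted p = 0.0430).

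Within the controls, non-targeting siRNAs were compared with the mock as a background for transfection of any siRNA. In this fit the 3 CIP2A siRNAs formed 1 level. Its spread therefore also held the differences among them, which can hide differences from the mock. EdgeR called 0 members and 0% of all genes in each direction, DESeq2 and limma-voom called 0 members, and at an unadjusted edgeR p under 0.05, 0 members were higher and 2, COL18A1 and AGRN, were lower (backgrounds 1.14% and 5.18%). Both non-targeting libraries were above the mock for 16 of 45 members (35.6%, against 40% of all genes) and below it for 22 (48.9%, against 40.5%). The 2 non-targeting libraries were nearer to each other than either was to the mock: chi-square per degree of freedom over genes was 3.10 between them and 8.58 and 10.8 to the mock. Between pairs of CIP2A siRNA libraries it was 14.6 to 17.1.

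When the mock was given its own level, so that the spread came from SCR#2 and SCR#3 alone, many more members passed. EdgeR then called 25 members higher and 2 lower with siCIP2A#1 (backgrounds 7.38% and 5.97% of all genes), among them MMP14, MMP2, NID1, VCAN, THBS1, FN1, TNC and HSPG2 higher and NID2 and LOXL1 lower. It called 15 higher and 4 lower with siCIP2A#2 (backgrounds 11.9% and 10.2%), the lower ones being COL12A1, PLAU, PLOD2 and VCAN. With siCIP2A#3 it called PLOD3 and TNC higher and FSTL1, HSPG2, LOXL2, PLAT and SPARC lower (backgrounds 4.5% and 4.48%). These calls rest on the spread of 2 libraries.

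Summed over all 54 members, the level was 5796, 5770 and 5552 CPM in mock, SCR#2 and SCR#3 and 6753, 5919 and 5586 CPM with siCIP2A#1, siCIP2A#2 and siCIP2A#3. The first and second siRNA libraries were above all controls, the second by a small margin, and the third was within their range. A few genes carried much of this sum: PLAU, TIMP2, LGALS1 and MMP14 had control means of 1001, 621, 572 and 416 CPM. Of 10 fibroblast and pericyte markers that are not members, 1 was at 0 in all libraries, and their summed level was 14.9 to 19.1 CPM in the controls and 17.3, 14.4 and 11.02 CPM with the siRNAs. The summed level of 8 epithelial markers, of which KRT8 and KRT18 made up most, was 720 to 949 CPM in the controls and 1149, 938 and 648 CPM with the siRNAs. SPARC, HSPG2, PLAT, COL1A1 and MMP14 and the fibroblast, endothelial and epithelial sums had the same order of the siRNAs. Other members, among them PLAU, TNC, VCAN, PLOD3 and TIMP1, had other orders. How often each order occurred over all genes was not computed. The 6 endothelial markers summed to 13.6 to 15.5 CPM in the controls and to 18.0, 13.5 and 9.72 CPM with the siRNAs. The 5 leukocyte markers summed to 164 to 203 CPM in the controls and to 170.0, 183 and 152 CPM with the siRNAs. The part of these differences in the matrix results was not tested.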

How the data were processed

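The data are 1 table of raw counts that the authors deposited, whole numbers of reads for each gene and library, per the file headers. Poly(A) RNA was made into libraries with a TruSeq stranded mRNA kit, per the labels' protocols. The tools bcl2fastq 2.17, STAR 2.5.4b and Subread 1.5.1 and the build hg38 are named in the submitters' processing notes, and for the annotation, the strand setting and the treatment of reads shared between genes nothing was given in the sources used here. Of the symbols, 51 had been altered by a spreadsheet, and 50 were restored from the Entrez identifier.

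The 54 members, the gene lists, the named-gene rule and the contrasts between siRNAs were chosen with earlier results of these data known. The rule named members called in any test, the 2 with the smallest group p in each role, the 12 with the largest difference with any single siRNA whose mean log2 CPM reached 1, and COL1A1, COL1A2, SPARC, FN1 and TNC. Further members are given as ranges or were named after their values were seen, PLOD2, PLAU, HSPG2 and the stretches shown upstream of FN1 and TNC among them.

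Genes were filtered with filterByExpr (minimum count 10), scaled with TMM and tested with edgeR 4.0.16 in R 4.3.3 (robust quasi-likelihood fits), with adjusted p under 0.05 over 13562 genes. The group fit had 4 residual degrees of freedom and the fit per siRNA 2, from the controls alone. The fit with non-targeting siRNAs apart had 3, in part from the 3 CIP2A siRNAs, held as 1 level. DESeq2 1.42.0, limma 3.58.1, RLE and upper quartile factors, 2 other filters, the mock as a separate level, the replicate number as a block and each library left out were alternatives. The fits were checked on simulated counts in which every gene had the same dispersion and libraries differed only by depth and added changes. That check does not cover the spread among unlike treatments in these data. Exon lengths and overlaps came from GENCODE 29, and start sites from RefSeq.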

Additional observations from a re-analysis of the deposited data

Results flagged for a closer look

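Differences between the siRNAs under the same controls passed the test for 3 members. These contrasts were planned with the calls for siCIP2A#1 in an earlier account of these data known. Only siCIP2A#1 was set against the mean of the other 2, where edgeR called 0.199% of all genes higher and 0.118% lower. Against siCIP2A#3 the shares were 0.361% and 0.147%. Between siCIP2A#1 and the mean of siCIP2A#2 and siCIP2A#3, the log2 difference was 1.34 for COL1A1 (SE 0.19, edgeR adjusted p = 0.0378), 1.40 for SPARC (SE 0.14, edgeR adjusted p = 0.0238) and 0.81 for PLAT (SE 0.12, edgeR adjusted p = 0.0446), each higher with the 1 library of siCIP2A#1. Between siCIP2A#1 and siCIP2A#3 it was 1.56 for COL1A1 (edgeR adjusted p = 0.0414), 1.90 for SPARC (edgeR adjusted p = 0.0216) and 1.07 for PLAT (edgeR adjusted p = 0.0369). CIP2A stood at 16.3 and 19.3 CPM in these 2 libraries, and its log2 difference between them was -0.24 (SE 0.15, edgeR adjusted p = 0.542). Each siRNA has 1 library, so the siRNA and its library cannot be told apart.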

How the results depend on the processing

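COL1A1 and SPARC with siCIP2A#1, and COL1A1, SPARC and PLAT in the comparisons of siCIP2A#1 with siCIP2A#3 and with the other 2, were called under every alternative run for them. Of 377 values of single genes under alternatives, 368 kept their direction and side of the threshold, 3 newly passed, which were PLAT with siCIP2A#1 (no filter, mock as a separate level, and without the mock), and 6 changed sign in the group comparison, where none had passed. COL5A2 was -0.055 with limma-voom and -0.33 without siCIP2A#2, GPC1 was -0.034 without siCIP2A#2, and without siCIP2A#1 SPARC was -0.072, PLAT -0.24 and COL4A1 -0.011. The cause was not tested. Most of the 377 values are group differences of the named members, which were far from passing in the main fit. That they kept their side of the threshold therefore says little.

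The group comparison called 0 members under every alternative, and in the main fit CIP2A itself was not called. DESeq2 called 1 member with siCIP2A#2, 6 between siCIP2A#1 and the other 2, 4 between siCIP2A#1 and siCIP2A#2, and 2 between siCIP2A#2 and siCIP2A#3. With no filter, edgeR called 5 with siCIP2A#1, 2 with siCIP2A#2, 8 between siCIP2A#1 and the other 2, 5 against siCIP2A#2, 5 against siCIP2A#3, and 4 between siCIP2A#2 and siCIP2A#3. When the mock had its own level, it called 27, 19 and 7 with the 3 siRNAs in order. With each control left out in turn, the number called ran from 2 to 28 with siCIP2A#1, 0 to 20 with siCIP2A#2, 0 to 8 with siCIP2A#3, 5 to 28 between siCIP2A#1 and the other 2, 4 to 26 against siCIP2A#2, 4 to 27 against siCIP2A#3, and 2 to 23 between siCIP2A#2 and siCIP2A#3, each highest without the mock. The share of all genes called without the mock was 9.65% to 22.4%. Without SCR#2 it was computed only for siCIP2A#1 (0.745%), and it was not computed without SCR#3 or with no filter. Counts with no such share are not read as results about the members. The count above all controls with siCIP2A#3 was 12 without the mock and 13 without SCR#2, over fewer controls and with no share of all genes computed.

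With the replicate block, 0 members were called in the group comparison and the median log2 difference was 0.10. The labels do not say that numbers pair libraries, and deviations of same-numbered libraries correlated at -0.117, -0.128 and 0.00762, so the numbers are not taken as pairs. Members under about 50 counts per library, such as COL1A2, COL6A3, NID2 and COL4A1, are limited by depth.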
